A study of Mus musculus with 12 samples.

Results

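The genes described here are 10 components of the transforming growth factor beta (TGF-beta) pathway: the ligand Tgfb1, the receptors Tgfbr1 and Tgfbr2, the signal-transducing Smad2, Smad3 and Smad4, the inhibitory Smad6 and Smad7, and the nuclear repressors Skil and Tgif1. They were chosen by name, with earlier results of these data known, and all 10 were found among the 43430 Ensembl genes of the deposited expression table. Their RNA was measured by sequencing of polyadenylated RNA from alveolar macrophages, the phagocytes that live in the alveoli, in a mouse lung transplant model. Of the libraries, 4 came from naive lungs, 4 from lungs taken 2 h after reperfusion (when blood flow to the transplant is restored) and 4 from lungs taken at 24 h. Every library carries the same labels for genotype (Cx3cr1gfp/+B6, a fluorescent reporter in place of 1 copy of Cx3cr1), sex (male) and age (14 weeks). The reperfusion libraries also have Allo in their titles, which the labels do not explain, and the labels do not say whether the macrophages came from donor or recipient, how they were purified, or whether each library came from its own animal.

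TGF-beta is secreted in a latent form and, once released, binds TGFBR2, which recruits and phosphorylates TGFBR1. TGFBR1 then phosphorylates SMAD2 and SMAD3, which join SMAD4 and act on genes in the nucleus. SMAD7 blocks this step at the receptor, SMAD6 acts chiefly on the related bone morphogenetic protein (BMP) branch, and SKIL (also called SnoN) and TGIF1 repress transcription together with the SMADs. In the lung, alveolar macrophages both make and need TGF-beta, and mice whose macrophage lineage lacks the receptor have impaired alveolar macrophage development.

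Library totals, recovered from the steps of the deposited values, were 6112586 to 8796071 reads in naive, 7242824 to 10347265 at 2 h and 9129420 to 11997945 at 24 h. All 14 markers of alveolar macrophages looked at had a mean of at least 1 RPKM (reads normalized to gene length and to the library total) in each group. Their summed level was 11780 to 12130 RPKM in naive, 8265 to 9494 at 2 h and 9678 to 11590 at 24 h. Chil3 made up most of it, with means of 7780, 4970 and 7802 RPKM. In the test described below, 2 of the 14 were higher and 4 lower at 2 h than in naive, with 14.7% and 22.0% of all tested genes. At 24 h 3 were higher and 9 lower than in naive, with 25.3% and 20.6% of all tested genes. Summed markers of lymphocytes went from 11.2 to 18.2 RPKM in naive to 2.67 to 7.84 at 2 h and 1.64 to 3.92 at 24 h, and those of interstitial macrophages were 18.6 to 21.6, 18.1 to 20.2 and 7.197 to 11.04. Epithelial markers summed to 55.9 to 60.2 RPKM in naive, 47.0 to 66.8 at 2 h and 22.8 to 33.1 at 24 h. This fall was mainly that of Epcam, with means of 42.5 RPKM in naive and 12.2 at 24 h. Sftpc had 7.21 and 5.80, and Scgb1a1 7.60 and 8.36. The neutrophil sum was highest at 24 h, with 26.2 to 34.9, 28.1 to 40.5 and 41.7 to 47.7. Its markers did not move together, since S100a8 had means of 10.2 RPKM in naive and 29.8 at 24 h, and Csf3r 6.51 and 2.01. Of 4 neutrophil markers tested, 1 was higher and 1 lower at 24 h than in naive. Of 57 markers of other cell types 22 were tested. Some of these, such as C1qa and Nkg7, reached 1 RPKM only in naive libraries, so the filter itself favoured lower values after reperfusion. At 2 h against naive 10 were lower and 0 higher, with 22.0% and 14.7% of all tested genes. At 24 h against naive 14 were lower and 2 higher, with 20.6% and 25.3% of all tested genes. H2-Ea-ps, an MHC class II gene that B6 mice do not transcribe because its promoter is deleted, had 0 to 0.184 RPKM in naive, 19.3 to 27.1 at 2 h and 1.48 to 5.20 at 24 h, which goes against a shared B6 background. Time after reperfusion and whatever strain difference lies behind this gene cannot be told apart in any comparison with naive or between the times. The part of these other cell types and of strain in the results was not tested.

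Most of the tested genes were lower at 24 h than in naive macrophages, and few differed at 2 h. The test was limma on log2(RPKM + 1) over all 12 libraries, and a gene is called when its p was under 0.05 after Benjamini-Hochberg adjustment across the 11419 genes tested. Of the 10 genes, 7 reached the 1 RPKM in 4 libraries needed to be tested, and Smad3, Smad6 and Smad7 did not. At 24 h against naive, 6 of the 7 were called, all lower, where 45.9% of all tested genes were called and 20.6% were called lower and 25.3% higher. This count was 3 without naive replicate 2, naive replicate 3 or 24 h replicate 1. At 2 h against naive 1 of 7 was called (Tgfbr2, higher), with 36.7% of all tested genes called, 14.7% higher and 22.0% lower, and this count was 0 to 2 with 1 library left out. At 24 h against 2 h 6 of 7 were called, 5 lower and Smad2 higher, with 52.5% of all tested genes called, 30.9% higher and 21.5% lower. The median log2 fold change of the 7 was 0.067, -0.277 and -0.344 for 2 h against naive, 24 h against naive and 24 h against 2 h, and that of all tested genes was -0.0423, 0.0027 and 0.0476. The comparisons share libraries, so they are not separate evidence. In bulk RNA, fewer cells with a transcript and less of it per cell cannot be told apart.

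**Figure D1:**
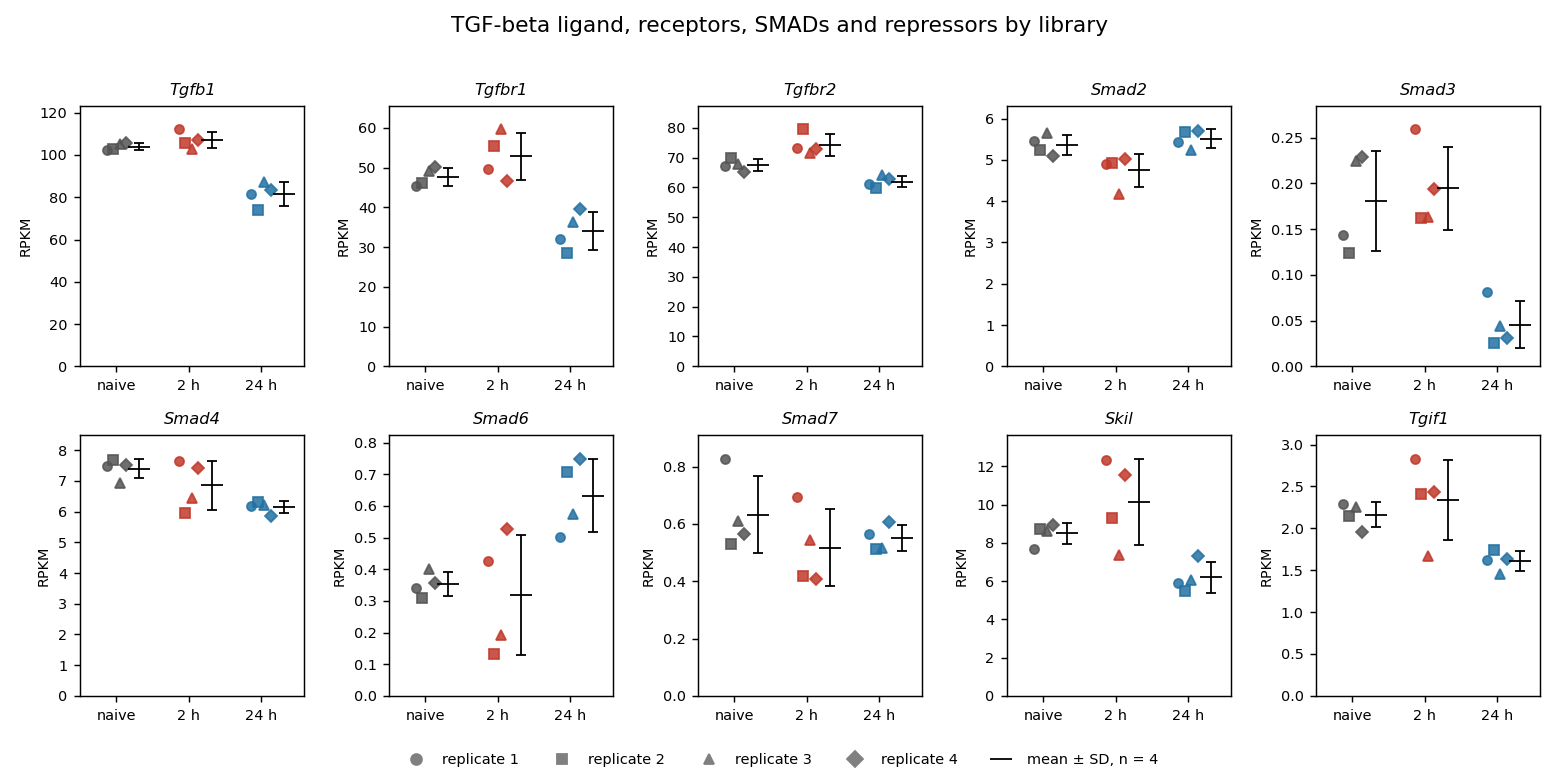
RPKM (vertical axes, each from 0) of the 10 genes in each naive, 2 h and 24 h library, with a marker shape for each replicate number and black bars for mean ± SD (n = 4). At 24 h the 4 libraries lay under all 4 naive libraries for Tgfb1, Tgfbr1, Tgfbr2, Smad3, Smad4, Skil and Tgif1, and over them for Smad6.

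Tgfb1 (chromosome 7, 25687002 to 25705077, mm10), which encodes the main TGF-beta ligand of immune cells, had 102.5, 102.8, 105.2 and 105.5 RPKM in the naive libraries. Its values were 112.1, 105.9, 102.9 and 107.2 RPKM at 2 h and 81.6, 73.8, 87.3 and 83.6 RPKM at 24 h. The 24 h libraries were all under every library of the other groups, and naive and 2 h libraries lay in the same range. Tgfb1 was lower at 24 h than in naive by limma (log2 fold change -0.35 ± 0.051 SE, adjusted p = 0.000182) and lower than at 2 h (-0.39, adjusted p = 5.93e-05). The difference between 2 h and naive, 0.04, did not pass (adjusted p = 0.568).

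Both receptor genes had their lowest levels at 24 h, and Tgfbr1 by more than Tgfbr2. Tgfbr1 (chromosome 4, 47353222 to 47414931), the type I receptor kinase, had 45.4, 46.2, 49.1 and 50.2 RPKM in naive, 49.7, 55.4, 59.6 and 46.6 at 2 h, and 31.9, 28.4, 36.3 and 39.5 at 24 h. All 24 h libraries were under all others, and the 2 h libraries overlapped the naive ones, with replicates 2 and 3 above them. Tgfbr1 was lower at 24 h than in naive (-0.49 ± 0.10 SE, limma adjusted p = 0.00197) and than at 2 h (-0.62, adjusted p = 0.00027), and 2 h against naive did not pass (0.14, adjusted p = 0.302).

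Tgfbr2 (chromosome 9, 116084293 to 116175360), the type II receptor that binds the ligand first, had 67.1, 69.9, 67.7 and 65.3 RPKM in naive, 73.1, 79.5, 71.4 and 72.9 at 2 h, and 61.0, 59.9, 64.0 and 62.9 at 24 h. The groups did not overlap in any of the comparisons, with the 2 h libraries highest and the 24 h libraries lowest, but the distances were small. It was higher at 2 h than in naive by 0.13 on the log2 scale (SE 0.045, limma adjusted p = 0.0338), lower at 24 h than in naive by limma (-0.12, adjusted p = 0.0426) and lower at 24 h than at 2 h (-0.26, adjusted p = 0.000493). The first call was lost without naive replicate 1, 3 or 4 or 2 h replicate 2 (adjusted p up to 0.1), under quantile normalization and with the 2 groups fitted alone. The second was lost without naive replicate 1, 2 or 3, without 2 h replicate 1 or without 24 h replicate 1, 2 or 4 (adjusted p up to 0.115), with no variance trend and in voom with no filter. The third kept its call without each of the 12 libraries.

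Within a library, the RPKM of Tgfbr2 was 1.30 to 1.51 times that of Tgfbr1 in naive, 1.20 to 1.57 times at 2 h and 1.60 to 2.11 times at 24 h. These ratios depend on the gene lengths the authors used, which act alike in every library, so that their shift between groups does not depend on them. The 24 h ratios lay above all the others, by a small margin over the highest 2 h library. The shift of this ratio was not tested.

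Among the Smads that carry the signal, Smad4 was lower at 24 h than in naive and Smad2 was not. Smad4 (chromosome 18, 73639009 to 73703780), the common partner of the receptor-activated Smads of both branches, had 7.47, 7.67, 6.95 and 7.51 RPKM in naive, 7.64, 5.96, 6.43 and 7.42 at 2 h, and 6.19, 6.32, 6.23 and 5.86 at 24 h. The 24 h libraries were all under the naive ones, while the 2 h libraries spanned both. Smad4 was lower at 24 h than in naive (-0.23 ± 0.068 SE, limma adjusted p = 0.0154), and its differences at 2 h against naive (-0.10, adjusted p = 0.274) and at 24 h against 2 h (-0.13, adjusted p = 0.125) did not pass. The call against naive was lost in voom with no filter, and the last difference passed without 2 h replicate 2.

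Smad2 (chromosome 18, 76241580 to 76310963), which the activated receptor phosphorylates, had 5.46, 5.25, 5.66 and 5.10 RPKM in naive, 4.90, 4.93, 4.16 and 5.02 at 2 h, and 5.43, 5.69, 5.23 and 5.70 at 24 h. The 2 h libraries were all under both other groups, and the naive and 24 h libraries overlapped. By limma it was higher at 24 h than at 2 h (0.18 ± 0.058 SE, adjusted p = 0.0204), and neither 2 h against naive (-0.15, adjusted p = 0.0649) nor 24 h against naive (0.03, adjusted p = 0.675) passed. The difference at 2 h passed with library weights (adjusted p = 0.036) and without 2 h replicate 4 (adjusted p = 0.0472). The 24 h against 2 h call was lost without 24 h replicate 2 or 4 (adjusted p up to 0.0519) and under median-ratio scaling, quantile normalization and voom. With those 3, 0 of the 7 genes were called higher and 6 lower at 24 h against 2 h, Smad4 among them.

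Smad3 (chromosome 9, 63646767 to 63757994), the other receptor-activated Smad of the TGF-beta branch, was close to the detection limit in these macrophages. The libraries held 9, 7, 12 and 10 reads of it in naive, 19, 12, 10 and 10 at 2 h, and 7, 2, 3 and 2 at 24 h, which are 0.180 ± 0.055, 0.194 ± 0.045 and 0.0456 ± 0.025 RPKM (SD, n = 4). Each 24 h library had no more reads than the lowest library of the other groups, and the 24 h RPKM values did not overlap with those of naive or 2 h. Without the filter on low values, limma called Smad3 lower at 24 h than in naive (-0.17, adjusted p = 0.00729) and than at 2 h (-0.19, adjusted p = 0.00324), where 21.3% and 26.0% of all 24505 genes were called. The pseudocount compresses these differences, and voom on the recovered reads gave -1.83 ± 0.43 SE (adjusted p = 0.0041) and -2.03 (adjusted p = 0.00104), with 23.2% and 29.1% of genes called. Counting error is large at this depth. Summed markers of lymphocytes, interstitial macrophages and epithelium also had their lowest libraries at 24 h, with the ranges given above. The epithelial sum fell mainly through Epcam, and the part of these cell types in the Smad3 reads was not tested.

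The 2 inhibitory Smads, both at low levels, did not move together. Smad6 (chromosome 9, 63953076 to 64022059) had 11, 9, 11 and 8 reads in naive, 16, 5, 6 and 14 at 2 h, and 22, 28, 20 and 25 at 24 h, or 0.353 ± 0.038, 0.319 ± 0.19 and 0.632 ± 0.11 RPKM (SD, n = 4). All 24 h libraries were above all naive ones, and the 2 h libraries fell into 2 low and 2 higher values. In RPKM the 2 h and 24 h libraries overlapped, with 0.528 in 2 h replicate 4 and 0.501 in 24 h replicate 1. Without the filter, 24 h against 2 h was called (0.32, limma adjusted p = 0.0282; 1.14 by voom, adjusted p = 0.0193), and 24 h against naive was not (0.27, adjusted p = 0.067; 0.82 by voom, adjusted p = 0.103).

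Smad7 (chromosome 18, 75367529 to 75395935), itself a known early target of TGF-beta signalling, had 59, 34, 37 and 28 reads in naive, 58, 35, 38 and 24 at 2 h, and 55, 45, 40 and 45 at 24 h. The groups overlapped in RPKM in all comparisons, and without the filter no difference passed by limma (adjusted p = 0.43, 0.601 and 0.798 for 2 h against naive, 24 h against naive and 24 h against 2 h). Smad6 reads were 0.186 to 0.297 of Smad7 reads in the naive libraries and 0.4 to 0.622 at 24 h, so these ranges did not overlap. At 2 h the ratio ran from 0.143 to 0.583 and overlapped both.

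Both nuclear repressors were lowest at 24 h. Skil (chromosome 3, 31095058 to 31122577) had 7.69, 8.71, 8.60 and 8.95 RPKM in naive, 12.3, 9.30, 7.37 and 11.5 at 2 h, and 5.92, 5.46, 6.05 and 7.33 at 24 h. The 24 h libraries were under all others, narrowly so against 2 h replicate 3, and the 2 h libraries spread to both sides of the naive ones. Skil was lower at 24 h than at 2 h (-0.61 ± 0.13 SE, limma adjusted p = 0.00201) and than in naive (-0.40, adjusted p = 0.0245), and 2 h against naive did not pass (0.21, adjusted p = 0.234). Without 2 h replicate 3 that last difference passed (adjusted p = 0.0293). The call against naive was lost without naive replicate 2, 3 or 4 or 24 h replicate 1, 2 or 3 (adjusted p up to 0.0698), and with no filter on low values.

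Tgif1 (chromosome 17, 70844205 to 70853546), a homeodomain protein that recruits corepressors to SMAD complexes, had 2.29, 2.15, 2.26 and 1.95 RPKM in naive, 2.83, 2.41, 1.67 and 2.44 at 2 h, and 1.62, 1.74, 1.45 and 1.63 at 24 h. The 24 h libraries were under all naive ones, and 2 h replicate 3 lay among the 24 h values. Tgif1 was lower at 24 h than in naive (-0.28 ± 0.097 SE, limma adjusted p = 0.0353) and than at 2 h (-0.34, adjusted p = 0.0109), and 2 h against naive did not pass (0.07, adjusted p = 0.625). The ratio of mean RPKM, 0.7445 at 24 h against naive, is a larger difference than the log2(RPKM + 1) scale shows for a gene this low. The call against naive was lost without naive replicate 1, 2 or 3 or 24 h replicate 1, 3 or 4 (adjusted p up to 0.0892), and with no filter in limma and in voom.

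**Figure D2:**
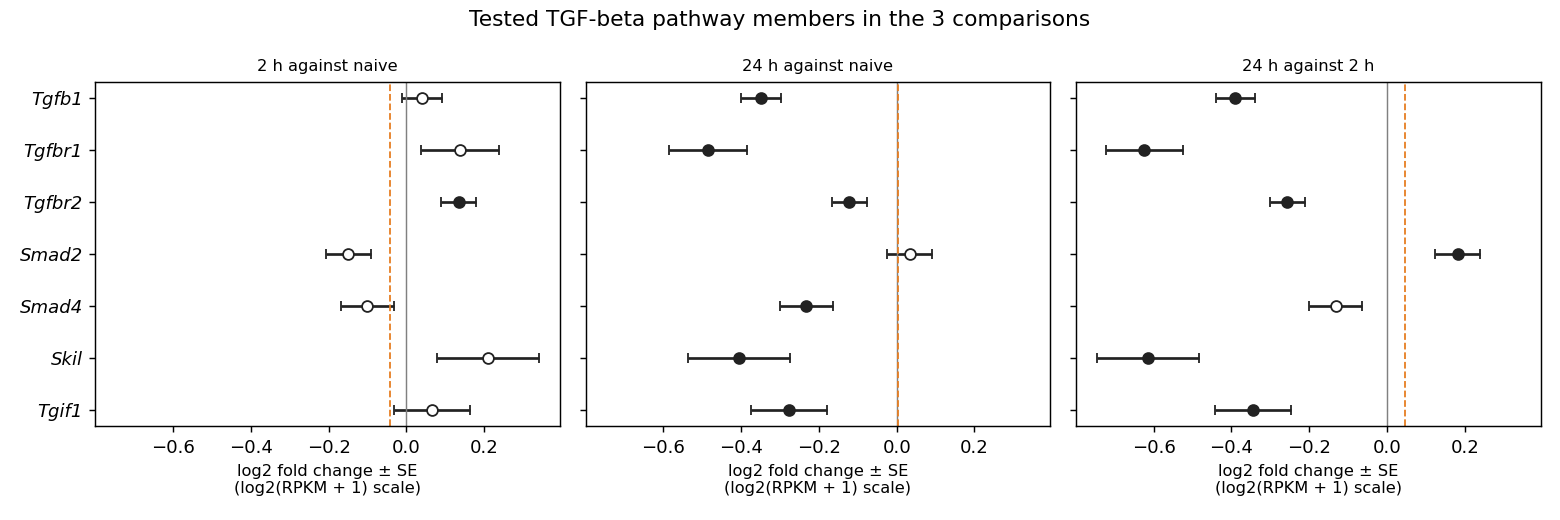
Log2 fold change ± SE on the log2(RPKM + 1) scale (horizontal axes) of the 7 tested genes in the 3 comparisons, filled where the limma adjusted p was under 0.05. The solid line marks 0 and the dashed line the median of all tested genes. At 24 h against naive the 6 filled points lie at negative values and Smad2 lies at 0.03.

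The 2 h libraries were not uniform. In RPKM, replicates 1 and 4 were both above replicates 2 and 3 for Skil, Tgif1, Smad4, Smad6, Tgfb1 and Smad3, and both under them for Tgfbr1. For Skil, replicates 1 and 4 had 12.3 and 11.5 RPKM, and replicates 2 and 3 had 9.30 and 7.37. For Smad6 they had 16 and 14 reads, against 5 and 6. For Tgfb1 the distance was small, with 112.1 and 107.2 RPKM against 105.9 and 102.9. What separates these libraries is not in the labels. Fitted to the naive and 24 h libraries alone, without any 2 h library, 6 of the 7 genes were again called at 24 h against naive, all lower.

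Set on a common length scale, the receptors and the ligand were far above the Smads. In reads scaled to the library total (in the same unit as RPKM) and to the length of annotated exon, naive means ± SD (n = 4) were 91.5 ± 4.3 for Tgfbr1, 78.3 ± 2.2 for Tgfbr2 and 69.5 ± 1.1 for Tgfb1. Skil followed at 21.5 ± 1.4, Smad4 at 16.0 ± 0.68, Smad2 at 6.38 ± 0.29 and Tgif1 at 5.99 ± 0.42, and the last pair did not differ beyond their spread. Smad7 had 1.14 ± 0.24, Smad6 0.403 ± 0.043 and Smad3 0.232 ± 0.070, so that reads of Smad2 far outnumbered those of Smad3. At 2 h Tgfbr1 had 101.3 ± 11, Tgfbr2 86.1 ± 4.1 and Tgfb1 71.5 ± 2.5, in the naive order. At 24 h this order changed, with Tgfbr2 at 71.9 ± 2.2, Tgfbr1 at 65.3 ± 9.3 and Tgfb1 at 54.5 ± 3.8, Tgfbr2 and Tgfbr1 being within their spread. Smad2 (6.55 ± 0.27) was then above Tgif1 (4.46 ± 0.33). The scale uses the exon union of the annotation because the lengths in the authors' RPKM were 0.668 of it for Tgfb1 and 2.77 times it for Tgif1, and reads outside annotated exons would raise these levels.

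The sequences just before the starts of Tgfb1, Tgfbr1, Tgfbr2 and Tgif1 are shown because each of these genes was called lower at 24 h than in naive. They are 250 bases upstream of a RefSeq start in GRCm38.p6, the assembly of mm10, read 5′ to 3′ on the gene's strand. Windows were held for 6 of the 10 genes (Tgfb1, Tgfbr1, Tgfbr2, Smad3, Smad6 and Tgif1), 11 windows in all, of which Tgfbr1 had 2 and Tgif1 5. Capitals mark a match on either strand to CAGACA (the core of the SMAD box, TGTCTG on the other strand), GGCGCC (a GC-rich SMAD element), the palindromic GTCTAGAC or CTGTCA (the TGIF motif, TGACAG on the other strand). The windows are, in order, chr7:25686752-25687001 (plus strand), chr4:47352972-47353221 (plus), chr9:116175364-116175613 (minus) and chr17:70853533-70853782 (minus).
Tgfb1: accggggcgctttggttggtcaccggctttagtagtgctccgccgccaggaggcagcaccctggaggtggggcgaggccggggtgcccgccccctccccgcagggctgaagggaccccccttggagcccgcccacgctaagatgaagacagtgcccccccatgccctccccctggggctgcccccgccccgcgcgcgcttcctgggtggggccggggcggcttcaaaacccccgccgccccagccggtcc
Tgfbr1: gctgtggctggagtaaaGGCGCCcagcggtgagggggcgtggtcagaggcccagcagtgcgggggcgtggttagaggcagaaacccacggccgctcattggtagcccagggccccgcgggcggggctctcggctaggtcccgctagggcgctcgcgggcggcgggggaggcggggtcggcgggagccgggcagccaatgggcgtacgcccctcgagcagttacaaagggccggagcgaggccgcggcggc
Tgfbr2: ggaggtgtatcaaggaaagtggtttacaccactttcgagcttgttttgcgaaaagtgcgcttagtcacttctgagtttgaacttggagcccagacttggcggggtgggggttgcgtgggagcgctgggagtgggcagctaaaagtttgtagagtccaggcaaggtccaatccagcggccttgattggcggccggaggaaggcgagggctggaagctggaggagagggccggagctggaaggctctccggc
Tgif1: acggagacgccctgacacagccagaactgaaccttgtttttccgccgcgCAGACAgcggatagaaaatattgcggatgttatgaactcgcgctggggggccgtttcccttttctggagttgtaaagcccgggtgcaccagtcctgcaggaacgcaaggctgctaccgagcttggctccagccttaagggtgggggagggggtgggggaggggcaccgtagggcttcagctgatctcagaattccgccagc

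CAGACA was present in 3 of the 11 windows, 1 of Tgfbr1 and 2 of Tgif1, and in 17.1% of the 32851 windows of all genes. GGCGCC was in 1 window (Tgfbr1, shown) and in 9.59% of all windows, and CTGTCA was in 1 (Smad6) and in 15.9% of all. GTCTAGAC was in 0 of the 11 and in 0.167% of all windows. The Tgfb1 and Tgfbr2 windows hold none of the 4. The windows shown are rich in G and C, at 75.2% for Tgfb1, 74.8% for Tgfbr1, 58.4% for Tgfbr2 and 59.6% for Tgif1, with a median of 52.4% over all windows. Such matches describe letters, not binding.

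Around these genes, 93 others of the TGF-beta, activin and BMP pathways were looked up and 54 were tested. At 2 h against naive 18 were higher and 9 lower, at 24 h against naive 7 were higher and 24 lower, and at 24 h against 2 h 12 were higher and 30 lower. The shares called were 50.0%, 57.4% and 77.8%, with 36.7%, 45.9% and 52.5% over all tested genes. For this set and the lists below, 14.7% of all tested genes were higher and 22.0% lower at 2 h against naive. At 24 h against naive these shares were 25.3% and 20.6%, and at 24 h against 2 h 30.9% and 21.5%.

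Of the ligands and the genes that store or release latent TGF-beta, 7 of 18 were tested. At 24 h against naive 0 were higher and 3 lower, at 2 h against naive 1 was higher and 3 lower, and at 24 h against 2 h 3 were higher and 4 lower. Tgfb2, another TGF-beta ligand, went from 1.12 ± 0.053 RPKM in naive through 0.807 ± 0.33 at 2 h to 0.138 ± 0.063 at 24 h (SD, n = 4). It was lower at 24 h than in naive (-0.90 ± 0.12 SE, limma adjusted p = 0.000101), the fall in RPKM being larger than this scale shows. Tgfb2 was tested only because its naive libraries and 2 h replicates 1 and 4 reached 1 RPKM. Its 24 h libraries had 0.076 to 0.220 RPKM, so the filter itself favoured a lower value at 24 h. Furin, the protease that cleaves the TGF-beta precursor, had 28.1 ± 2.5 RPKM in naive, 46.4 ± 7.3 at 2 h and 26.9 ± 2.2 at 24 h, and was higher at 2 h than in naive (0.70, adjusted p = 0.000502). Fn1, the matrix protein fibronectin, moved the other way, with 23.0 ± 0.52, 15.1 ± 3.3 and 24.4 ± 3.8 RPKM (2 h against naive -0.60, adjusted p = 0.00782). Fn1 was also listed as a monocyte marker, so it is counted both here and among the markers of other cell types. Itgb1, an integrin subunit, had 82.3 ± 2.6, 75.2 ± 4.3 and 68.1 ± 3.4 RPKM, lower at 24 h than in naive (-0.27, adjusted p = 0.00131).

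Of the 15 activin and BMP ligands and antagonists only Gdf15 and Twsg1 were tested. Gdf15, a stress-induced cytokine of the family, had 11.02 ± 2.1 RPKM in naive, 28.9 ± 11 at 2 h and 12.9 ± 4.0 at 24 h, and was higher at 2 h than in naive (1.25 ± 0.27 SE, limma adjusted p = 0.00451). Twsg1, a BMP-binding secreted protein, had 5.93 ± 0.68, 7.19 ± 0.48 and 9.996 ± 0.43 RPKM and was higher at 24 h than in naive (0.67, adjusted p = 1.48e-05).

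Of the 12 other receptors of the family 6 were tested. At 24 h against naive 5 of these were lower and 0 higher, with 20.6% and 25.3% of all tested genes. At 2 h against naive 1 was higher and 1 lower, and at 24 h against 2 h 3 were lower and 0 higher. Acvrl1, a type I receptor also known as ALK1, had 4.68, 3.94, 4.23 and 4.73 RPKM in naive, 4.28, 3.78, 3.89 and 4.50 at 2 h and 2.35, 1.76, 2.41 and 2.36 at 24 h. Its 24 h libraries were far under all others (24 h against naive -0.75 ± 0.082 SE, limma adjusted p = 1.97e-05). Acvr1b, the type I activin receptor, had 37.9 ± 1.0, 28.9 ± 4.0 and 25.2 ± 1.0 RPKM and was lower at both times (-0.39, adjusted p = 0.00341 at 2 h; -0.57, adjusted p = 0.000143 at 24 h). Bmpr2, the type II BMP receptor, had 10.3 ± 0.52, 9.36 ± 0.85 and 6.92 ± 0.68 RPKM, with 24 h lower than naive (-0.52, adjusted p = 0.000147). Acvr2a, a type II activin receptor, had 2.43 ± 0.16, 3.58 ± 0.54 and 1.64 ± 0.10 RPKM, higher at 2 h (0.41, adjusted p = 0.0021) and lower at 24 h (-0.38, adjusted p = 0.00218) than in naive. Of the BMP-branch Smads, Smad1 and Smad5 were tested, with 5.80 ± 0.27 and 2.70 ± 0.14 RPKM in naive and 6.12 ± 0.56 and 2.61 ± 0.17 at 24 h, and neither differed between these groups by limma (adjusted p = 0.455 and 0.627). Smad1 was higher at 2 h than in naive (0.22, adjusted p = 0.0171), a call lost without 2 h replicate 2.

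**Figure D3:**
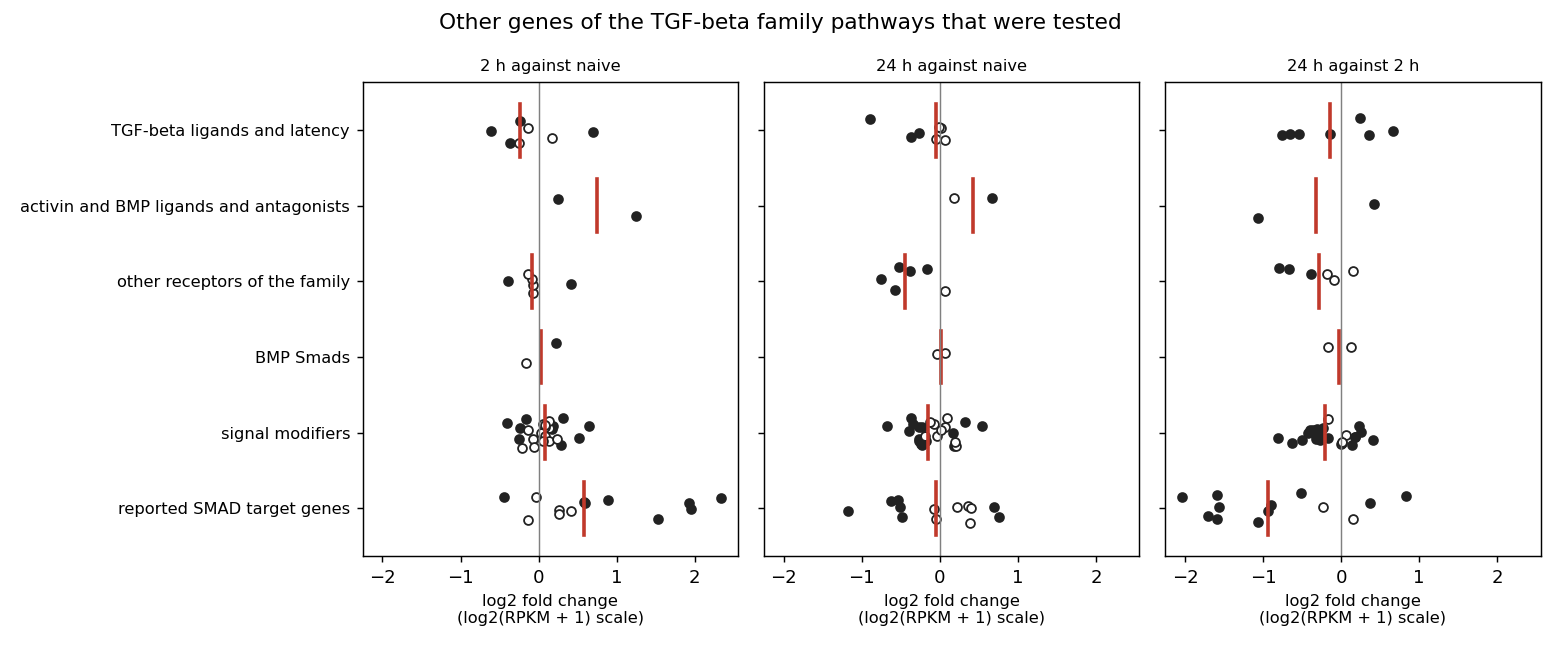
Log2 fold changes on the log2(RPKM + 1) scale (horizontal axes) of the 54 other tested pathway genes in the 3 comparisons, 1 point per gene by list, filled where the limma adjusted p was under 0.05, with a red bar at each list's median. Among the other receptors 5 of 6 points are filled and negative at 24 h against naive. Among the 13 reported SMAD target genes tested, 7 are filled and positive at 2 h against naive and 9 filled and negative at 24 h against 2 h. Of all tested genes, 20.6%, 14.7% and 21.5% were called in these directions.

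Of 27 modifiers of the signal 24 were tested, with 6 higher and 4 lower at 2 h against naive, 4 higher and 11 lower at 24 h against naive, and 6 higher and 13 lower at 24 h against 2 h. Ski, the close relative of Skil, had 30.1, 30.4, 30.4 and 30.3 RPKM in naive, 33.9, 33.2, 33.9 and 32.3 at 2 h and 22.2, 21.3, 24.9 and 24.8 at 24 h. Its groups did not overlap in any comparison, and 24 h was lower than naive (-0.37 ± 0.053 SE, limma adjusted p = 0.000149) and than 2 h (-0.50, adjusted p = 9.76e-06), while 2 h against naive did not pass (0.13, adjusted p = 0.068). Under median-ratio scaling and voom the 2 h difference of Ski passed. Rnf111, a ubiquitin ligase that removes Skil and Smad7, had 11.1 ± 0.20, 9.79 ± 0.21 and 8.17 ± 0.51 RPKM and was lower at 24 h than in naive (-0.40, adjusted p = 3.43e-05). Ep300, a histone acetyltransferase that SMADs recruit, had 11.6 ± 0.32, 8.51 ± 0.76 and 9.74 ± 0.12 RPKM, with its lowest level at 2 h (-0.40 against naive, adjusted p = 0.000276). Strap, which holds SMAD7 at the receptor, went up instead, with 30.2 ± 1.8, 37.3 ± 3.5 and 44.5 ± 2.6 RPKM (24 h against naive 0.54, adjusted p = 7.6e-05).

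Of 18 genes that other studies report as SMAD targets 13 were tested. At 2 h against naive 7 were higher and 1 lower, with 14.7% and 22.0% of all tested genes. At 24 h against naive 2 were higher and 5 lower, with 25.3% and 20.6% of all tested genes. At 24 h against 2 h 2 were higher and 9 lower, with 30.9% and 21.5% of all tested genes. The median log2 fold change of the 13 in these comparisons was 0.58, -0.052 and -0.941, and that of all tested genes was -0.0423, 0.0027 and 0.0476. Many of the listed genes respond to other signals as well, so the list does not measure the pathway alone. It also includes Myc, which TGF-beta represses in epithelial cells, so the pooled counts and median do not give a direction of the pathway.

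Id2, an inhibitor of helix-loop-helix transcription factors, had 44.9, 44.6, 50.1 and 47.5 RPKM in naive, 213.9, 311.8, 354.6 and 140.4 at 2 h and 71.1, 86.7, 74.6 and 86.9 at 24 h. The groups did not overlap, and 2 h replicates 2 and 3 were highest. Id2 was higher than in naive at 2 h (2.34 ± 0.23 SE, limma adjusted p = 2.77e-05) and at 24 h (0.75, adjusted p = 0.0166). Pdgfb, a growth factor for mesenchymal cells, had 1.18 ± 0.21, 5.29 ± 0.62 and 0.548 ± 0.29 RPKM. It passed the filter through its naive and 2 h libraries, all its 24 h libraries being under 1 RPKM. Pdgfb was higher at 2 h (1.53, adjusted p = 9.31e-06) and lower at 24 h (-0.50, adjusted p = 0.00567) than in naive. Bhlhe40, a transcription factor of tissue macrophages, had 82.9 ± 8.3, 125.1 ± 19 and 58.8 ± 6.0 RPKM and did the same (0.58, adjusted p = 0.0025; -0.49, adjusted p = 0.00449). Myc, which TGF-beta represses in epithelial cells, had 5.58 ± 0.76, 6.95 ± 1.2 and 3.25 ± 0.28 RPKM and was lower at 24 h than in naive (-0.63, adjusted p = 0.000869).

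Tgfbi, another gene of this list, was picked out after its values were seen. Tgfbi, a secreted matrix protein, had 338.9, 304.9, 335.1 and 314.1 RPKM in naive, 239.5, 315.0, 349.3 and 280.4 at 2 h, and 508.3, 700.4, 471.4 and 449.4 at 24 h. Its 24 h libraries were above all others, and it was higher at 24 h than in naive (0.70, adjusted p = 0.00152) when Tgfb1 and both receptors were lower.

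**Figure D4:**
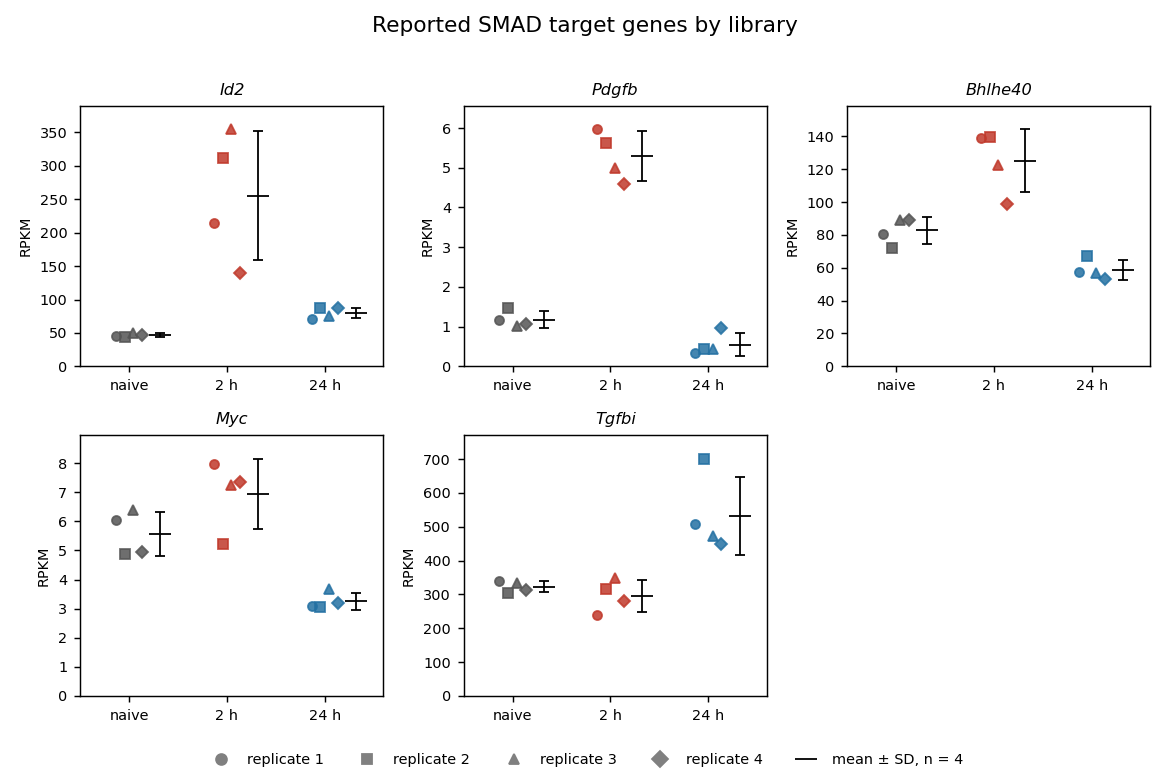
RPKM (vertical axes, each from 0) of 5 reported SMAD target genes in each naive, 2 h and 24 h library, with a marker shape for each replicate number and black bars for mean ± SD (n = 4). Id2, Pdgfb and Bhlhe40 are highest in the 4 libraries of 2 h, and Tgfbi is highest in the 4 of 24 h.

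The genes with the pattern most like that of Tgfb1 over the 12 libraries were Deptor (Pearson r = 0.990), Ctsf (0.987) and Dtx3 (0.983). For Tgfbr1 they were Clasp2 (0.979), Plxdc1 (0.968) and Cd274 (0.965), and for Tgfbr2 Pex14 (0.958), Ptprs (0.956) and Slc15a3 (0.950). They were the top of all tested genes, and the libraries share their group means. With group means removed the r of Deptor with Tgfb1 was 0.926, that of Clasp2 with Tgfbr1 was 0.929 and that of Pex14 with Tgfbr2 was 0.732. These are descriptions of 12 libraries, with no test.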

How the data were processed

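The submitters' processing notes name bcl2fastq, TopHat2, HTSeq and the build mm10, while versions, annotation and gene lengths were not found in these sources. The authors deposited RPKM values per Ensembl gene, 1 column for each of the 12 libraries, normalized to gene length and library total. Symbols and positions came from the GENCODE annotation of the same assembly, and promoter windows from RefSeq (GRCm38.p6). No exon of the 10 genes overlapped another annotated gene's exons, and BLAST 2.17.0 found 0 transcripts of other genes with at least 90% identity over at least 200 bases.

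limma 3.58.1 (R 4.3.3) was fitted to log2(RPKM + 1) with a variance trend, using groups from the time labels, two-sided tests and Benjamini-Hochberg adjustment per comparison. Genes with at least 1 RPKM in at least 4 of 12 libraries were tested. The steps were checked on simulated data with few changed genes, about as many raised as lowered, and with independent libraries. Such data cannot test the scaling where many genes change, nor the split among the 2 h libraries. RPKM steps gave whole reads, within 0.02 of a read, for 11396 of 11419 tested genes (99.8%), and these went into limma voom with TMM scaling (written out for this work). It called 2051 genes higher and 2119 lower at 2 h against naive, 2806 and 2601 at 24 h against naive, and 3141 and 3112 at 24 h against 2 h.

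Members and gene lists were chosen with earlier results of these data known. All 10 members were named, and in each other list up to 4 tested genes with the smallest p; Tgfbi and H2-Ea-ps were added after their values were seen. Other genes of the lists are counted but not named. For the 3 members with the smallest adjusted p, the 3 genes of highest r are named (no predicted or clone names). Since no label says that libraries come from separate animals, p-values reflect spread among libraries that could be technical. There were 24 other settings: pseudocounts, filters, scalings, fits of compared groups alone, library weights, no trend, a replicate block, voom, and each library left out.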

Additional observations from a re-analysis of the deposited data

Results flagged for a closer look

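Of 30 groups of 4 libraries looked at for the 10 genes, 1 held a library far from the rest, and chance flags about 1 in 20 such groups. Smad2 had its lowest 2 h value in replicate 3, at 4.162 RPKM, where the other 2 h libraries had 4.895 to 5.017 RPKM. The gap was 0.858 of the range of the group, above the critical value of Dixon's test for 4 values. The same library also had the lowest 2 h values of Tgfb1 (102.9 RPKM), Tgfbr2 (71.4 RPKM), Skil (7.37 RPKM) and Tgif1 (1.67 RPKM), and the highest of Tgfbr1 (59.6 RPKM).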

How the results depend on the processing

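The 24 h calls of Tgfb1 and Tgfbr1 against both other groups, and those of Tgfbr2 and Skil against 2 h, held in all 24 other fits, and that of Tgif1 against 2 h in all 23 that tested it. At 2 h against naive the number of the 10 genes called, 1 in the fit reported, was 0 under quantile normalization, with the 2 groups alone and with the replicate block, 2 with library weights, and 0 to 2 with 1 library left out. At 24 h against naive it was 3 to 6 with 1 library left out, and 3 without naive replicate 2, naive replicate 3 or 24 h replicate 1. At 24 h against 2 h it stayed within 1.5 times of 6, and so did the counts of the other pathway genes in each comparison. Smad4 lost its call against naive in voom with no filter alone. Values close to 0 changed sign: Tgfb1 at 2 h against naive (-0.009) and Smad2 (-0.0111) and Fn1 (-0.006) at 24 h against naive under quantile normalization, Tgif1 at 2 h against naive without 2 h replicate 1 (-0.0032, in a range up to 0.1694 with 1 library left out), and Fn1 at 24 h against naive without 24 h replicate 2 (-0.0156, up to 0.1649). The cause was not tested. Median-ratio scaling moved the calls of all genes at 2 h against naive from 1675 higher and 2514 lower to 2062 and 2043. Voom with no filter, chosen after seeing the data, moved the median of all genes to -0.108 at 24 h against naive and -0.142 at 24 h against 2 h. Its larger values for the low genes were 0.20, -1.83 and -2.03 for Smad3, -0.32, 0.82 and 1.14 for Smad6, and -0.25 at 2 h against naive for Smad7. Replicate numbers did not pair the libraries, since same-numbered libraries correlated at -0.043 to 0.055, and with the replicate block 0, 5 and 6 of the genes were called in the 3 comparisons, both calls of Tgfbr2 against naive being lost. Depth limits Smad3 and Smad6, with 2 to 28 reads per library.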
